A study of Mus musculus with 51 samples.

Results

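Interleukin 6 and acute phase signalling was followed through 10 genes of mouse hepatocytes and liver. They are the receptor genes Il6ra, Il6st, Osmr, Lifr and Il1r1, the mediators Stat3, Cebpb and Cebpd, and the feedback genes Socs3 and Nfkbia. They were taken by symbol from a matrix of 33773 genes, and all 10 had a row. The matrix gives RPKM, a read number per length of gene and per depth of library.

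Of the 6 groups, 4 are hepatocytes. The FoxA triple null group (4 libraries) comes from FoxA1L/L/FoxA2 L/L/FoxA3-/- mice that received, at 8 weeks of age, an AAV8 vector with Cre recombinase under the hepatocyte-specific Tbg promoter. FoxA3 null (4 libraries) comes from mice of the same alleles given virus with GFP, so both groups lack FoxA3 and both carry virus. FoxA1/A2 lox (3 libraries) is undeleted, and FoxA1/A2 Cre alfp (4 libraries) carries a Cre transgene that the labels name alfp; both have FoxA3. The other 2 groups are liver, with 2 HNF4a control libraries and 4 labelled HNF4a null, in which HNF4a was to be depleted in the adult. FoxA1, FoxA2 and FoxA3 are related DNA-binding factors of liver cells, and HNF4a is a nuclear receptor of the same cells. Age, sex and virus of the lox, Cre alfp and liver groups are not given in the sources used here. Nothing states that libraries of a group came from separate animals, so the p-values measure the spread between libraries.

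As background, interleukin 6 is a blood-borne signal of injury and infection. It binds the receptor encoded by Il6ra, which pairs with the shared signalling chain gp130 (Il6st), and gp130 also serves oncostatin M and leukaemia inhibitory factor together with the products of Osmr and Lifr. Activated gp130 leads to phosphorylation of STAT3, which with the C/EBP factors turns on acute phase protein genes in hepatocytes and also the inhibitor gene Socs3. Interleukin 1 acts through Il1r1 and NF-kB, and NF-kB induces its own inhibitor, Nfkbia. RNA levels do not show phosphorylation or protein.

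The checks of the targeted genes gave mixed results. Foxa3 was at 0.00449 ± 0.00548 RPKM (SD, n = 4) in FoxA3 null and at 25.0 ± 5.39 (n = 3) in lox. Foxa2 was at 0.366 ± 0.103 in the triple null (n = 4) against 13.7 ± 4.58 in FoxA3 null (n = 4), and at 1.09 ± 0.127 in Cre alfp (n = 4) against 12.5 ± 6.26 in lox (n = 3). Foxa1 was at 3.28 ± 0.283 RPKM in the triple null (n = 4) against 8.50 ± 1.85 in FoxA3 null (n = 4), and at 1.14 to 1.34 in the 4 Cre alfp libraries against 4.71 to 8.21 in the 3 of lox. Hnf4a RNA went against its label, at 118 to 126 RPKM in the 2 controls and 487 to 545 in the 4 libraries with the HNF4a null label. Every direction given for the liver comparison rests on those labels. Whether the Hnf4a reads cover a deleted part is not known from the matrix.

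Across the groups, the 10 genes spanned a wide range of RPKM. In hepatocytes Cebpb was the most abundant, at 148 to 470.2 RPKM, followed by Lifr, Nfkbia and Socs3. Osmr was at no more than 0.331 RPKM in any hepatocyte library. It did not reach the test's minimum of 1 RPKM in 3 hepatocyte libraries, so 9 of the 10 genes were tested there and all 10 in liver.

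**Figure D1:**
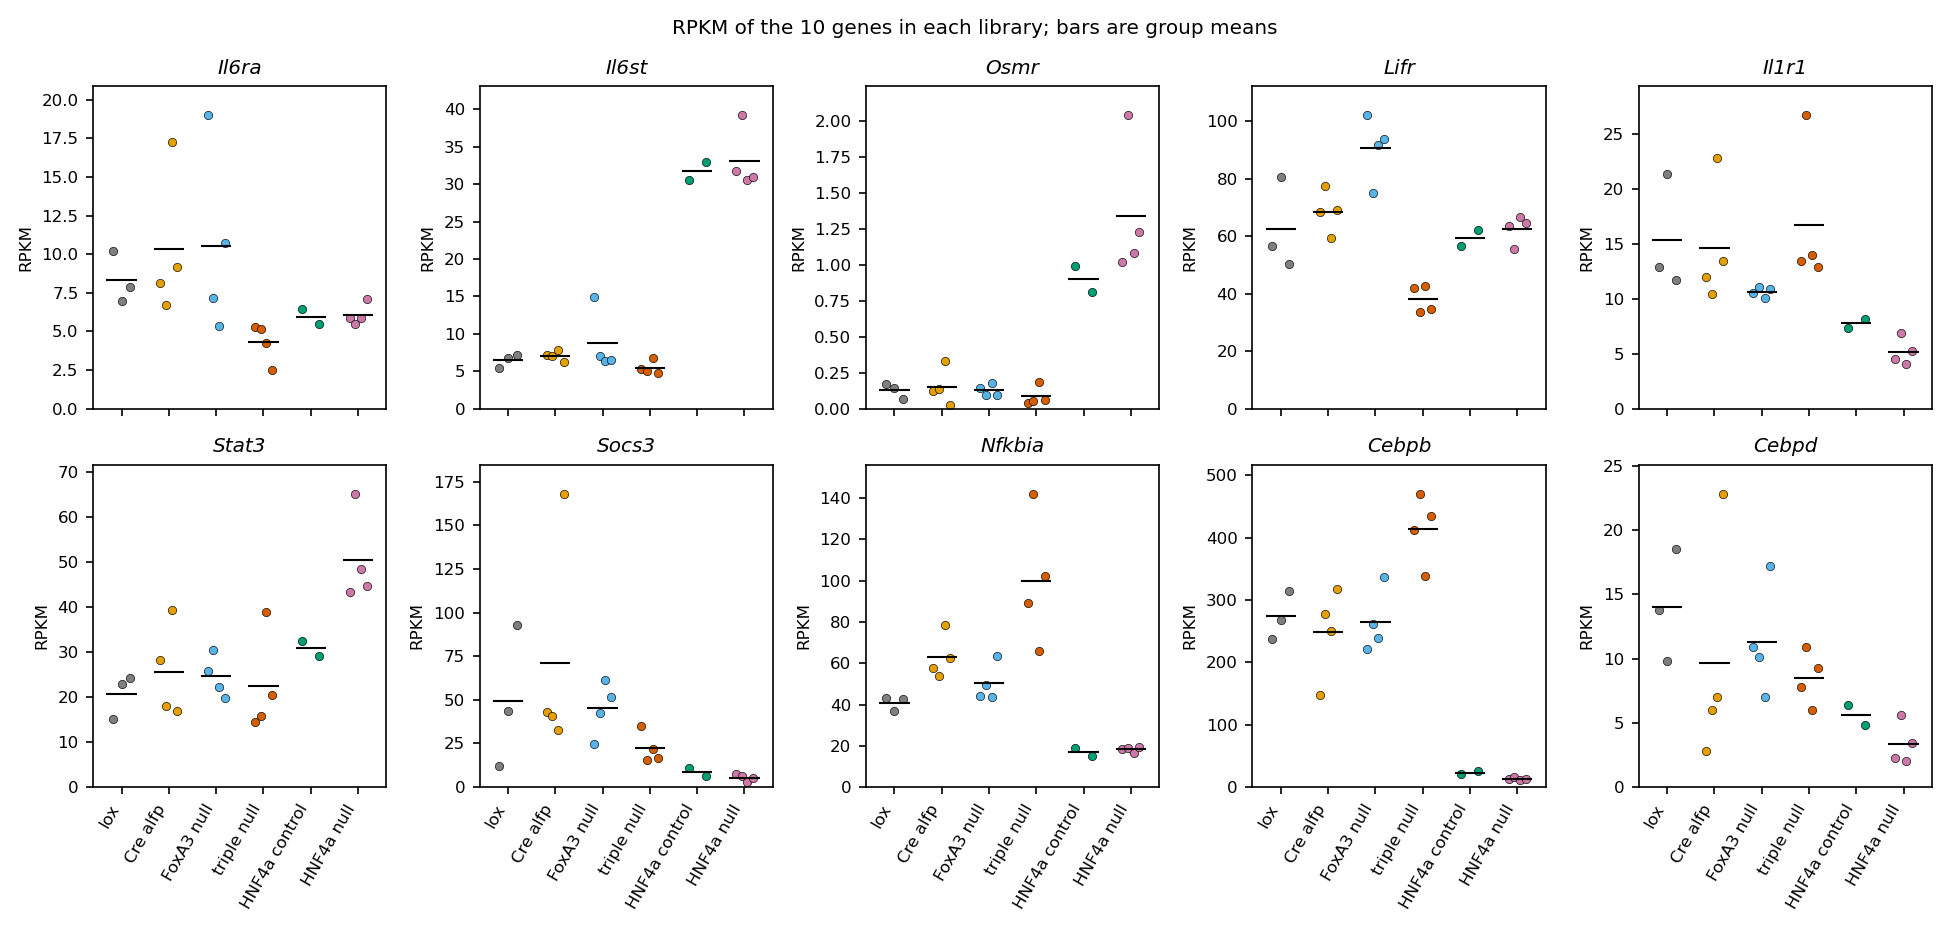
RPKM of the 10 genes (vertical axes, linear and from 0) in each of the 21 libraries (points) by group, with bars at the group means. The 4 triple null libraries lie lowest of all for Lifr, at 33.5 to 42.5 RPKM, and highest of all for Cebpb, at 339 to 470.2, while Il6st and Osmr are higher and Cebpb, Nfkbia, Socs3 and Il1r1 lower in every liver library than in every hepatocyte library.

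A first question was what FoxA1/A2 deletion changed in hepatocytes that already lacked FoxA3. Differences are on the log2(RPKM + 1) scale with standard errors from limma, and calls needed both an adjusted p under 0.05 (Benjamini-Hochberg, over all tested genes) and an absolute difference of at least 1. Of the 9 genes tested, 2 were called, both lower in the triple null: the receptor genes Lifr and Il6ra. Of all 11500 genes tested, 8.11% were called in either direction and 3.95% were called lower. Without the minimum difference 4 of the 9 passed, Nfkbia and Cebpb in addition and both higher, where 29.7% of all genes passed. The median difference of the 9 was -0.34, and that of all tested genes 0.05. Values did not overlap between the groups for 5 of the 9, where 27.9% of all genes had no overlap.

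Lifr is the receptor chain that joins gp130 to bind leukaemia inhibitory factor. It stood at 42.0, 33.5, 42.5 and 34.8 RPKM in the triple null and at 102, 74.9, 91.8 and 93.9 in FoxA3 null. Each triple null value lay below each FoxA3 null value and below each of the other hepatocyte and liver libraries. The mean fell to 42.2% ± 5.21 (SD, n = 4) of that in FoxA3 null. The log2 difference was -1.22 ± 0.15 (SE), with a limma adjusted p of 3.44e-05, and the call held in each of 15 alternative settings, including the removal of any single library of the 2 groups.

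With FoxA3 present, deletion of FoxA1 and FoxA2 gave no call for Lifr. Cre alfp libraries stood at 68.3, 77.3, 59.5 and 68.9 RPKM and lox libraries at 56.6, 80.4 and 50.2, so the groups overlapped. The log2 difference was 0.15 ± 0.16, with a limma adjusted p of 0.686. The interaction, that is the difference of the deletion's effect without FoxA3 from its effect with FoxA3, was -1.38 ± 0.22, with a limma adjusted p of 0.000977, and it was called in each of 21 alternative settings. Lifr was the only one of the 9 genes whose interaction was called, and it was called lower, where 6.82% of all genes were called and 3.54% were called lower. At the adjusted p alone it was again 1 of 9, where 14.4% of all genes passed. Cre came from a transgene in Cre alfp and from a virus in the triple null, and the Foxa1 RNA left was at 1.14 to 1.34 RPKM in Cre alfp and 3.04 to 3.63 in the triple null, without overlap, so FoxA3 status and the way of deletion cannot be told apart here.

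Promoters from RefSeq were searched for short motifs. Of the 10 genes, 9 had at least 1 entry, and there were 11 entries, because Lifr and Il1r1 have 2 starts each; Cebpd had none. The windows run from 250 bases before each start to 50 after it, in build GRCm38.p6, and both strands were read. The FoxA motif TGTTTNC was in 1 of the 11 windows, that of the downstream Lifr start, against 20.5% of all 32851 promoters. The promoter is shown because Lifr is the gene with the called interaction; it is chr15:7140292-7140541 on the plus strand, the 250 bases before the start, with the motif match in capitals, read on the other strand.

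Lifr, downstream start: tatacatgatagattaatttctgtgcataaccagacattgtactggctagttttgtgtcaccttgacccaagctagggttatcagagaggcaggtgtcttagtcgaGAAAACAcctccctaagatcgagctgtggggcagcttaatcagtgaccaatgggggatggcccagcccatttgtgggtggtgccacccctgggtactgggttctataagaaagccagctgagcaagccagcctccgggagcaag

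The match GAAAACA began 144 bases before the start. It is a match of letters; no binding data were joined to it, and the RPKM value does not tell which of the 2 Lifr starts was used. Neither the other Lifr window nor that of Il6ra held the motif. The HNF4a motif CAAAGNNCA was in none of the 11 windows, against 6.36% of all promoters.

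Il6ra, the interleukin 6 binding chain, was also called lower, less firmly. Triple null libraries stood at 5.30, 5.18, 4.25 and 2.53 RPKM, and FoxA3 null libraries at 19.0, 7.17, 5.34 and 10.7. The groups did not overlap, but 5.30 and 5.34 lay next to each other, and FoxA3 null replicate 1 was the highest. The mean was 40.9% ± 12.1 (SD, n = 4) of that in FoxA3 null. The log2 difference was -1.02 ± 0.33, with a limma adjusted p of 0.0329. Without FoxA3 null replicate 1 it was -0.71 (limma adjusted p 0.0987), and without triple null replicate 4 it was -0.83 (0.104), neither of them called; the call was also lost without FoxA3 null replicate 4 (0.0728) and without triple null replicate 3 (0.0531). It was lost as well without the minimum RPKM (0.0860) and in a fit of these 2 groups alone (0.0520).

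With FoxA3 present, Il6ra stood at 8.14, 6.73, 17.3 and 9.20 RPKM in Cre alfp and at 10.2, 6.98 and 7.87 in lox. The log2 difference was 0.21 ± 0.36 (limma adjusted p 0.823), and the interaction was -1.23 ± 0.49 (limma adjusted p 0.107). The interaction passed without FoxA3 null replicate 3, at -1.47 (limma adjusted p 0.0471). For Il6ra, a difference between the effects with and without FoxA3 was thus not called with all libraries.

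Il6st, the gene of gp130, was at 5.32, 5.06, 6.76 and 4.75 RPKM in the triple null and at 14.9, 6.98, 6.41 and 6.53 in FoxA3 null. The groups overlapped through triple null replicate 3, and 1 FoxA3 null library, replicate 1 again, lay far above the other 3. The difference was -0.51 ± 0.21, with a limma adjusted p of 0.0748, and it was not called. Without FoxA3 null replicate 1 it was -0.25. Within each library, Il6ra RPKM divided by Il6st RPKM averaged 0.795 ± 0.250 in the triple null (SD, n = 4) and 1.19 ± 0.350 in FoxA3 null (n = 4), and the ranges, 0.533 to 1.02 and 0.834 to 1.65, overlapped.

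Il1r1, the signalling receptor of interleukin 1, had no call. It stood at 13.4, 26.7, 14.0 and 12.9 RPKM in the triple null and at 10.5, 11.1, 10.1 and 10.9 in FoxA3 null. Every triple null library lay above every FoxA3 null library, and replicate 2 was far above the rest. The difference was 0.54 ± 0.26, with a limma adjusted p of 0.125, and without triple null replicate 2 it was 0.31 (0.362). The FoxA3 null libraries also lay below all 3 of lox (11.7 to 21.4 RPKM), while the triple null range overlapped those of lox and Cre alfp (10.4 to 22.8). Osmr, the oncostatin M receptor chain, was at 0.0420 to 0.184 RPKM in the triple null and 0.0945 to 0.178 in FoxA3 null. Without the minimum RPKM its difference was -0.06 (limma adjusted p 0.72), on a scale that compresses values this low.

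Nfkbia encodes the inhibitor that holds NF-kB in the cytoplasm. It stood at 89.0, 142, 65.8 and 102 RPKM in the triple null and at 44.0, 49.5, 43.8 and 63.6 in FoxA3 null. Each triple null library was above each FoxA3 null library, though replicate 3 only narrowly, and the mean was 199% ± 64.0 (SD, n = 4) of that in FoxA3 null. The difference of 0.94 ± 0.20 had a limma adjusted p of 0.00304 but stayed under the minimum difference of 1. It passed that minimum without FoxA3 null replicate 4 (1.06) and without triple null replicate 3 (1.12). With FoxA3 present, Nfkbia was 0.60 ± 0.22 higher in Cre alfp than in lox (limma adjusted p 0.136), at 53.6 to 78.6 against 36.8 to 43.1 RPKM. The interaction was 0.33 ± 0.30 (limma adjusted p 0.480).

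The Nfkbia promoter is shown for its 2 matches to the NF-kB motif, GGG and CC with any 5 bases between, since this gene is a target of the factor it inhibits. Their letters are in capitals in chr12:55492648-55492897, minus strand, the 250 bases before the start.

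Nfkbia: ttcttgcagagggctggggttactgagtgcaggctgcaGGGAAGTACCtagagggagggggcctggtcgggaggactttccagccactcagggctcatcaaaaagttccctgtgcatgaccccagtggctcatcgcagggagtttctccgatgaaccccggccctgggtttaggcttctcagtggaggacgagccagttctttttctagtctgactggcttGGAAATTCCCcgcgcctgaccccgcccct

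The motif is common: 9 of the 11 windows of these genes held it, and so did 50.8% of all promoters. The match nearest to the start, GGAAATTCCC, began 29 bases before it and reads as the motif on the other strand.

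Cebpb encodes a factor that works with STAT3 on acute phase genes. It stood at 412, 470.2, 339 and 435 RPKM in the triple null and at 222, 262, 239 and 337 in FoxA3 null. The groups did not overlap, with 339 the lowest triple null value and 337 the highest FoxA3 null value. The difference of 0.65 ± 0.21 passed the adjusted p of limma at 0.0312 and stayed under the minimum difference. The adjusted p rose above 0.05 without any one of FoxA3 null replicates 1 to 3 (0.0826, 0.0613 and 0.0625) or of triple null replicates 1, 2 and 4 (0.0576, 0.0836 and 0.0743), and without the minimum RPKM (0.0725), all by limma. With FoxA3 present it was -0.19 ± 0.23 (limma adjusted p 0.737), and the interaction was 0.83 ± 0.31 (limma adjusted p 0.0854). Cebpd, the related factor, stood at 5.98 to 10.9 RPKM in the triple null and 7.02 to 17.2 in FoxA3 null, a difference of -0.34 ± 0.43 (limma adjusted p 0.585).

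Stat3, the central mediator, stood at 14.5, 15.9, 39.0 and 20.4 RPKM in the triple null and at 25.9, 30.5, 22.3 and 19.9 in FoxA3 null. Triple null replicate 3 was above every FoxA3 null library and the other 3 spread from below their range into it. The difference was -0.22 ± 0.31, with a limma adjusted p of 0.625. It was -0.51 without triple null replicate 3 (limma adjusted p 0.162) and -0.06 without triple null replicate 1 (0.921). In Cre alfp, replicate 3 was also the highest, at 39.3 RPKM, over 28.3, 18.1 and 16.9 in the others.

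Socs3, the feedback inhibitor that gp130 signalling induces, had the widest standard error of the 9 genes. It stood at 34.9, 15.4, 21.7 and 16.7 RPKM in the triple null and at 24.9, 42.7, 61.2 and 51.4 in FoxA3 null. Triple null replicate 1 lay within the FoxA3 null range, and the other 3 lay below it. The difference was -0.99 ± 0.58, with a limma adjusted p of 0.211, and it was not called. The authors' deposited table for the same groups gives Socs3 a log2 fold change of -1.08 and an adjusted p of 0.0305. In lox the 3 libraries spread from 12 to 92.8 RPKM, and in Cre alfp replicate 4 reached 168 over 33.0 to 43.1 in the others.

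The Socs3 promoter is shown because it holds the only match to the STAT motif TTCNNNGAA in the 11 windows, where 8.30% of all promoters have one. It is chr11:117969367-117969616, minus strand, with the match in capitals, which began 154 bases before the start.

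Socs3: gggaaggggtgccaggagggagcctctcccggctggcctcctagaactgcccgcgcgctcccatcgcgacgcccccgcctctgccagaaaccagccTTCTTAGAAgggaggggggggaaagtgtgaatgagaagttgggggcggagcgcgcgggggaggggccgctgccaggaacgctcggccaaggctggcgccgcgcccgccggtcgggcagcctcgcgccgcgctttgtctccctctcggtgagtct

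The C/EBP motif TTGCNNAA was in 1 of the 11 windows, that of the upstream Il1r1 start, against 10.8% of all promoters. The Cebpb and Stat3 windows held neither the STAT nor the C/EBP letters.

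**Figure D2:**
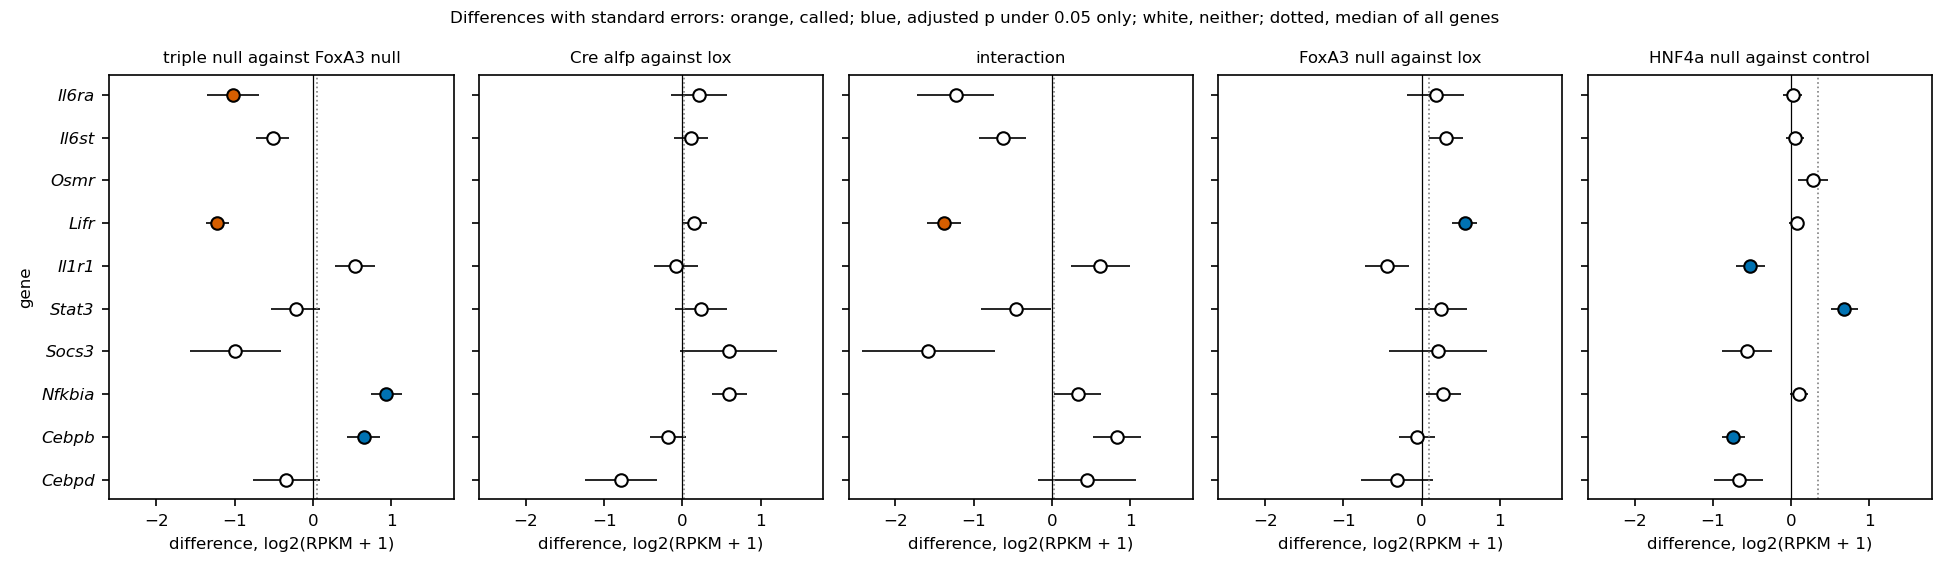
Differences on the log2(RPKM + 1) scale (horizontal axes) with standard errors for each gene (rows) in the 5 comparisons, with the dotted line at the median of all tested genes. In triple null against FoxA3 null, Lifr (-1.22) and Il6ra (-1.02) are called lower and Nfkbia (0.94) and Cebpb (0.65) pass the adjusted p alone; in the liver comparison most genes lie below the dotted line at 0.34.

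In Cre alfp against lox none of the 9 tested genes was called by limma, none passed the adjusted p alone, and 1, Nfkbia, had an unadjusted p under 0.05 (0.0145). Of all genes 2.38% were called there, 5.46% passed the adjusted p and 18.3% had an unadjusted p under 0.05. The differences ran from -0.79 ± 0.46 for Cebpd to 0.60 ± 0.22 for Nfkbia. Without Cre alfp replicate 4, whose Cebpd was 22.8 RPKM against 2.84 to 7.02 in the other 3, Cebpd was called lower at -1.28 (limma adjusted p 0.0417).

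In FoxA3 null against lox none of the 9 was called, where 7.19% of all genes were, and 1, Lifr, had an unadjusted p under 0.05 (0.00438), where 46.3% of all genes had. Lifr also passed the adjusted p, at 0.55 ± 0.16 (limma adjusted p 0.0193), where 34.8% of all genes passed. It no longer passed without lox replicate 1 (0.0756), lox replicate 3 (0.0799) or FoxA3 null replicate 1 (0.0501), after median scaling (0.0721) or in a fit of these 2 groups alone (0.0605). Its values, 74.9 to 102 RPKM in FoxA3 null and 50.2 to 80.4 in lox, overlapped. FoxA3 null mice received virus, and no virus is named for lox. Earlier results of these data also placed these 2 groups on 2 sides of a split of the libraries. FoxA3, virus and that split cannot be told apart. The FoxA3 null group also serves as control for the triple null, so the higher Lifr there and its fall in the triple null share libraries. Against Cre alfp and against a control without deletion, whose libraries are not named, the authors' deposited tables give Lifr a log2 fold change of -1.10 in the first (p adjusted here from the deposited p-values, as for every gene of that table, 6.9e-09) and -0.97 in the second (adjusted p 0.00279). In the same 2 deposited tables Il6ra was at -1.43 (0.000722) and -1.13 (1.71e-05), and Il6st at -0.57 (4.98e-06) and -0.46 (0.00507), all lower in the triple null. Nfkbia was at 0.48 (0.0604) and 1.09 (1.58e-05) in them, and Socs3 at -1.87 (0.00825) and -1.35 (0.0889). Cebpb was at 0.43 (0.0947) and 0.30 (0.147), Il1r1 at -0.01 (0.986) and -0.11 (0.774) and Stat3 at -0.18 (0.548) and -0.18 (0.598) in the same deposited tables, none of them past 0.05. These tables share their triple null group, and 50.9% and 51.6% of their genes passed an adjusted p of 0.05.

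The genes around the 10 were counted in lists of ligands, other receptors, JAK-STAT mediators and inhibitors, NF-kB and C/EBP genes, immediate early genes and acute phase proteins. In triple null against FoxA3 null, where 8.11% of all genes were called, each list other than the immediate early genes and the acute phase proteins held 0 to 2 called genes. Of 12 tested JAK-STAT mediators none was called by limma; 4 passed the adjusted p alone, where 29.7% of all genes did, and 7 had an unadjusted p under 0.05, where 41.3% of all genes did. Of 13 feedback genes 1 was called, Pim1, a kinase gene that STAT factors induce, at 1.23 ± 0.31 (limma adjusted p 0.00905). Of 18 NF-kB genes 2 were called: Nfkbiz, an inducible co-regulator, at 1.01 ± 0.31 and Ikbkg, the regulatory subunit of the kinase that releases NF-kB, at -1.75 ± 0.23.

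Of 7 tested ligand genes 1 was called, Il1rn, the interleukin 1 receptor antagonist, which rose by 2.26 ± 0.35 (limma adjusted p 0.000291). Its RPKM was 15.5 ± 8.13 in the triple null (SD, n = 4) and 2.25 ± 0.726 in FoxA3 null (n = 4). Il1rn also rose in Cre alfp against lox, by 2.28 ± 0.38 (limma adjusted p 0.00319). Il6 itself was at no more than 0.105 RPKM in any hepatocyte library, and Osm and Lif at no more than 0.0924 and 0.0714. Of 10 other receptors 1 was called, Il4ra, a chain of the interleukin 4 receptor, which fell by 1.93 to 1.60 ± 0.271 RPKM from 8.92 ± 1.26 (n = 4 each); its interaction, -2.00 ± 0.25, was also called (limma adjusted p 0.000109). Of 6 C/EBP genes and partners 1 was called, Cebpe, at -1.72 ± 0.17.

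The acute phase proteins, the output of the pathway, held more called genes. Of 31 tested, 12 were called higher and 9 lower in the triple null, against 8.11% of all genes called. Their median difference was 0.55. Hamp2, a hepcidin gene, rose by 5.36 ± 0.46, Lcn2, an iron-scavenging protein of the acute phase, rose by 5.21 ± 0.44, and Serpina10, an inhibitor of coagulation, fell by 5.22 on the log2 scale. The list thus changed in both directions. In Cre alfp against lox, 2 of the 31 were called higher and 4 lower, where 2.38% of all genes were called. Hamp2 was called there too, at 4.76 ± 0.50 (limma adjusted p 5.73e-05), with Orm3 higher at 2.58 ± 0.23 and Hp, the haptoglobin gene, lower at -1.78 ± 0.46.

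Saa1, Saa2 and Lcn2 were set beside Stat3 and Socs3 library by library. Saa1 and Saa2 were picked after their values were seen. They are near-identical copies and may share reads, which was not tested. Saa1 stood at 1326, 1870.2, 6248 and 2391 RPKM in the triple null and at 122 to 355 in FoxA3 null, a difference of 3.60 ± 0.59 (limma adjusted p 0.000435). Triple null replicate 3 was the highest for Saa1, for Saa2 (2325 RPKM) and for Lcn2 (1034 RPKM), and it was also the highest of its group for Stat3 (39.0 RPKM). Its Socs3, 21.7 RPKM, was not the highest. In Cre alfp the library with the highest Saa1 was replicate 1 (491 RPKM), and the one with the highest Stat3 was replicate 3, at a Saa1 of 194 RPKM. In FoxA3 null the highest Stat3 was in replicate 2 (30.5 RPKM) and the highest Saa1 in replicate 4 (355 RPKM). Under the HNF4a null label the library with the highest Stat3 (65.2 RPKM) had a Saa1 of 3.54, below the highest of 6.08. Of the groups with 4 libraries, Saa1 and Stat3 thus shared their highest library in the triple null alone. For Saa2 and Lcn2 this was not so. Under the HNF4a null label the library with the highest Stat3 also had the highest Saa2 (1.47 RPKM) and Lcn2 (84.0 RPKM). Among 4 libraries a shared highest one can arise by chance, which was not tested.

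**Figure D3:**
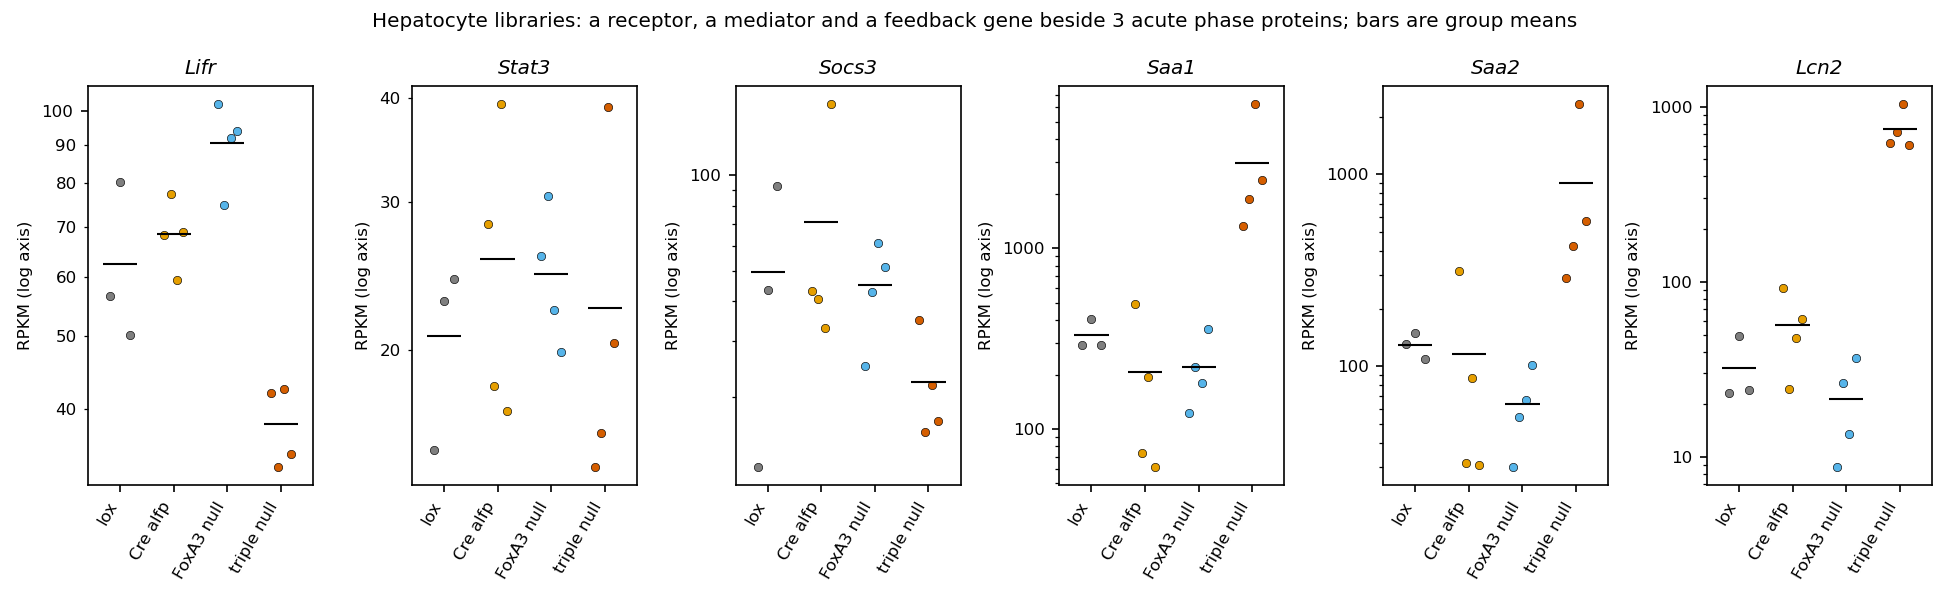
RPKM (vertical log axes) of Lifr, Stat3 and Socs3 beside the acute phase genes Saa1, Saa2 and Lcn2 in each hepatocyte library (points), with bars at group means. The 4 triple null libraries are the highest for Lcn2 (601 to 1034 RPKM) and for Saa1 (1326 to 6248) and the lowest for Lifr (33.5 to 42.5), while Stat3 and Socs3 overlap between all groups.

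Markers of other liver cells moved along with these differences. The summed level of 14 sinusoidal endothelial markers was 12.9 to 25.3 RPKM in the triple null and 38.2 to 61.4 in FoxA3 null, without overlap. Of 11 tested, 3 were called lower, where 3.95% of all genes were. The sum of 13 stellate cell and fibroblast markers was 7.37 to 26.8 RPKM against 28.1 to 37.9. Of these, Colec11 (-1.25 ± 0.31) and Reln (-1.15 ± 0.27) were called lower. Of 10 neutrophil and monocyte markers, summed to 9.84 to 112 RPKM against 0.836 to 2.14, S100a8 and S100a9 were the 2 tested and called, both higher. These 2, at means of 32.4 ± 39.8 and 8.71 ± 6.16 RPKM (SD, n = 4), carried most of the triple null sum and were the 2 markers with a mean of at least 1 RPKM there; 1 marker was at 0 in all triple null libraries. S100a9 was at no more than 0.523 RPKM in lox and 0.451 in FoxA3 null, with a median of 0.983 in Cre alfp. It thus passed the minimum RPKM only with the triple null, where it was high, so its call is no separate support. Kupffer cell and macrophage markers summed to 18.1 to 58.0 against 27.7 to 37.9 RPKM. Triple null replicate 2 had the highest sum of its group for neutrophil and monocyte markers (112 RPKM) and for macrophage markers (58.0). It was also the highest of its group for Il1r1 (26.7 RPKM), Nfkbia (142) and Cebpb (470.2). The part of other liver cells in these high values, or in the fall of Lifr and Il6ra, was not tested. In bulk RNA, fewer cells of a type and less RNA per cell cannot be told apart. Hepatocyte markers fell as a sum, at 26578 to 34588 RPKM in the triple null and 55247 to 62511 in FoxA3 null, without overlap. Among them Ttr (-5.65 ± 0.15), Apoa1 (-5.23 ± 0.21) and Cps1 (-2.16 ± 0.32) were called lower. Cholangiocyte markers summed to 5.45 to 8.84 against 7.53 to 11.1, lymphocyte markers to 0.203 to 1.48 against 0.387 to 0.857, and erythroid genes to 10.5 to 29.9 against 35.8 to 50.1 RPKM. Within the erythroid list Alas2, a heme synthesis enzyme, was called lower, at 1.04 ± 0.281 against 38.9 ± 5.74 RPKM, while the globin genes Hba-a1 (5.72 ± 3.26 against 0.790 ± 0.271) and Hbb-b1 (6.17 ± 4.03 against 1.24 ± 0.266) were called higher (SD, n = 4 each).

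The liver set asks about HNF4a. All 10 genes were tested there, and none was called by limma, where 14.5% of all 12434 genes were. At the adjusted p alone 3 passed, Cebpb and Il1r1 lower and Stat3 higher in the libraries labelled HNF4a null, where 52.8% of all genes passed, and the same 3 had an unadjusted p under 0.05, where 59.9% of all genes had. The median difference of all genes was 0.34, so differences are also given relative to it. The median of the 10 was 0.04. Values did not overlap for 4 of the 10, where 67.0% of all genes had no overlap. One of the 4, Osmr, was under 1 RPKM in both controls (0.810 and 0.989). It passed the minimum RPKM only through the libraries labelled HNF4a null, so the filter favoured its separation.

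Stat3 stood at 32.6 and 29.1 RPKM in the controls and at 43.3, 65.2, 48.4 and 44.8 under the HNF4a null label. All 4 lay above both controls. The library at 65.2 RPKM also had the highest summed acute phase level, 28283 RPKM against 14561 to 17251 in the other 3. The gene with the highest mean RPKM in that sum, over all libraries, was Hamp, so the sum is weighted to it. The same library had the highest Lcn2, 84.0 against 13.0 to 16.7. Without that library the Stat3 difference was 0.55 (limma adjusted p 0.00808). With all libraries the difference was 0.68 ± 0.17 (limma adjusted p 0.0169), or 0.34 above the median of all genes. The limma adjusted p was 0.0557 without the control at 32.6 RPKM, 0.103 without the other, 0.0551 without the minimum RPKM and 0.142 after median scaling. Cebpb stood at 21.3 and 25.2 RPKM in the controls and at 13.1, 16.9, 12 and 12.4 in the others, all below both controls. The difference was -0.74 ± 0.15 (limma adjusted p 0.00745), which is -1.08 against the median of all genes. Without the control at 25.2 RPKM it was -0.62 (limma adjusted p 0.0601). After scaling each library to its median, Cebpb was the 1 gene of the 10 that was called, at -1.04 (limma adjusted p 0.00213).

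Il1r1 stood at 7.38 and 8.14 RPKM in the controls and at 4.52, 6.90, 4.09 and 5.22 under the HNF4a null label. The difference was -0.52 ± 0.18 (limma adjusted p 0.0487), which is -0.86 against the median of all genes. It no longer passed without either control (limma adjusted p 0.119 and 0.202), without any one of the libraries at 4.52, 4.09 and 5.22 RPKM (0.0966, 0.0858 and 0.0784), without the minimum RPKM (0.127) or at a pseudocount of 0.1 (0.0505). Its partner chain, Il1rap, the co-receptor that interleukin 1 signalling needs, fell much further, from 69.1 ± 1.73 RPKM (SD, n = 2) to 5.53 ± 0.654 (n = 4), a difference of -3.43 ± 0.11 (limma adjusted p 3.42e-06). In the hepatocyte groups Il1rap was at 53.9 to 63.8 RPKM on average.

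Lifr, Il6ra and Il6st overlapped between the liver groups. Lifr was at 56.4 and 62.2 RPKM in the controls and 55.5 to 66.5 under the HNF4a null label, a difference of 0.07 ± 0.10 (limma adjusted p 0.581). Il6ra was at 5.48 to 6.44 against 5.45 to 7.07 RPKM (0.02 ± 0.12), and Il6st at 30.6 to 32.9 against 30.5 to 39.2 (0.05 ± 0.12). After median scaling these 3 differences turned to -0.24, -0.25 and -0.25, none of them called. Nfkbia (0.10 ± 0.12) turned likewise to -0.19, and Osmr (0.28 ± 0.19, at 0.810 to 0.989 against 1.02 to 2.04 RPKM) to -0.01 under quantile normalization. Socs3 (-0.57 ± 0.32) and Cebpd (-0.67 ± 0.31) had no call in any of the 11 alternative settings.

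Among the lists, which include the library with the high acute phase sum, the liver set again showed most calls in the acute phase proteins, with 11 higher and 8 lower of 31 tested, where 14.5% of all genes were called, the share to read each count here against. Orm3, an orosomucoid gene with near-identical copies, rose by 5.06 ± 0.24, Mt1, a metallothionein, rose by 3.61 ± 0.35, and Serpina3m had a difference of -3.56 ± 0.61. Saa1, chosen as above, fell to 4.12 ± 1.34 RPKM (SD, n = 4) from 33.7 ± 6.07 (n = 2), a difference of -2.78 ± 0.23 (limma adjusted p 0.000199). Of 10 other receptors 3 were called: besides Il1rap, Lepr, the leptin receptor, at 3.44 ± 0.37 and Ghr, the growth hormone receptor, at -2.55 ± 0.12. Of 7 ligands 2 were called higher, Il1rn at 3.04 ± 0.16 and Clcf1, a cytokine of the gp130 family, at 1.38 ± 0.20. In the controls these 2 reached no more than 0.264 and 0.517 RPKM. They passed the minimum RPKM only through the libraries labelled HNF4a null, where they were high. None of 12 JAK-STAT mediators and none of 18 NF-kB genes was called by limma; 7 and 6 of them passed the adjusted p alone, and 7 and 7 had an unadjusted p under 0.05, where 52.8% and 59.9% of all genes did. Of 13 feedback genes 1 was called, Bcl6, a repressor, at -1.21 ± 0.19. Of 6 C/EBP genes 2 were called lower, Cebpe at -2.03 ± 0.13 and Cebpa, a main C/EBP factor of hepatocytes, at -1.43 ± 0.10. Of 16 immediate early genes 5 were called higher and 2 lower, led by Gadd45b at 4.34 ± 0.13, Egr1 at 1.57 ± 0.21 and Btg2 at 1.28 ± 0.22. In triple null against FoxA3 null, Klf6 and Ier3 of this list of 19 were called higher and Gadd45b lower, at -2.09 ± 0.45. There 8.11% of all genes were called. In the liver controls Orm3, Gadd45b and Egr1 reached no more than 0.261, 0.793 and 0.646 RPKM. Like the 2 ligands, they passed the minimum RPKM only through the libraries labelled HNF4a null.

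Cholangiocyte markers moved with the liver groups, at 19.0 to 19.4 RPKM in the controls and 140.2 to 239 under the HNF4a null label, where 7 of 9 tested were called higher. Of the 11 markers, 3 had a mean of at least 1 RPKM in the controls and 9 under the HNF4a null label. Several thus passed the minimum RPKM only through the group where they were high, so the count of calls is no separate support. Kupffer cell and macrophage markers summed to 178 to 188 against 223 to 273 RPKM, and neutrophil and monocyte markers to 2.68 to 3.11 against 7.02 to 19.1. Hepatocyte markers summed to 32939 to 33709 RPKM in the controls against 17714 to 20843, sinusoidal endothelial markers to 195 to 214 against 246 to 264, and stellate cell and fibroblast markers to 116 to 131 against 144 to 166, each without overlap. Their part in the values of Stat3 and the ligands was not tested.

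**Figure D4:**
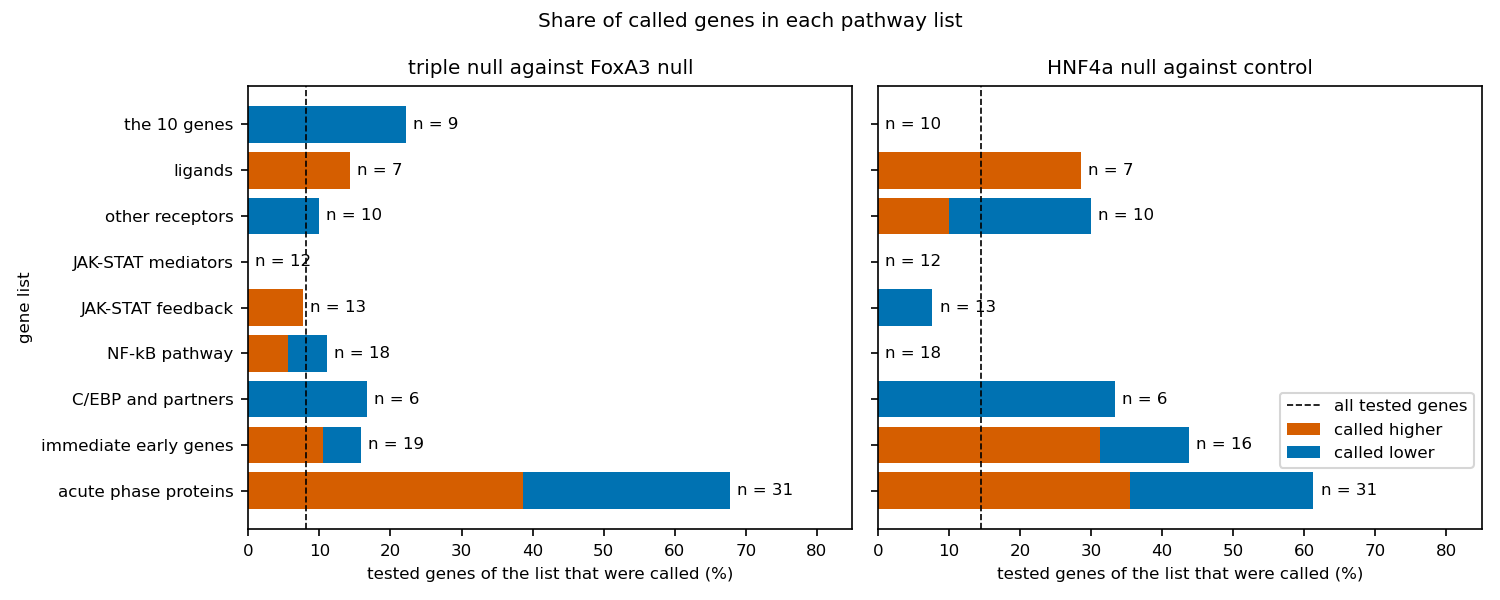
Share of the tested genes of each list (rows, with n tested) that was called higher or lower (horizontal axes, percent) in the triple null comparison with FoxA3 null and in the liver comparison, with the dashed line at the share of all tested genes (8.11% and 14.5%). The acute phase proteins reach far past the line in both comparisons (21 and 19 of 31 called), and the JAK-STAT mediators have no called gene in either.

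Hepatocyte and liver libraries were set side by side without a test, since tissue and genotype both differ. Of the 10 genes, 6 had no overlap between the 15 hepatocyte and the 6 liver libraries, where 26.4% of 13398 genes had none. Osmr, among the 6, reached 1 RPKM only in libraries labelled HNF4a null, so it was counted through the group where it was highest. Il6st was at 30.5 to 39.2 RPKM in liver and 4.75 to 14.9 in hepatocytes, and Osmr at 0.810 to 2.04 against 0.0219 to 0.331. Cebpb ran the other way, at 12 to 25.2 RPKM in liver and 148 to 470.2 in hepatocytes, as did Nfkbia (15.2 to 19.2 against 36.8 to 142), Socs3 (3.09 to 10.9 against 12 to 168) and Il1r1 (4.09 to 8.14 against 10.1 to 26.7). The summed level of 19 immediate early genes, Jun among them, was 68.1 to 135 RPKM in liver and 1102 to 3475 in hepatocytes. Macrophage and endothelial markers were higher in liver, at 178 to 273 and 195 to 264 RPKM, than in hepatocytes, at 9.61 to 93.7 and 12.9 to 101. The part of either in these 6 genes was not tested.

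The order of the group means shows where neighbours can be told apart. For Lifr the order from the lowest was triple null, HNF4a control, lox, HNF4a null, Cre alfp and FoxA3 null, and only the triple null was separated from its neighbour without overlap. For Il6ra the triple null was again lowest and again the only separated group, followed by both liver groups, lox, Cre alfp and FoxA3 null. For Cebpb the order was HNF4a null, HNF4a control, Cre alfp, FoxA3 null, lox and triple null, and Cre alfp, FoxA3 null and lox were the groups that overlapped with a neighbour. For Nfkbia the liver groups were lowest, then lox, FoxA3 null, Cre alfp and triple null, with a gap between liver and lox and a narrow one between lox (up to 43.1 RPKM) and FoxA3 null (from 43.8). For Stat3 the groups from lox through triple null, FoxA3 null and Cre alfp to HNF4a control overlapped in turn, and HNF4a null was highest and separate. For Socs3 both liver groups were lowest and separate from the triple null, and the 4 hepatocyte groups overlapped in turn. Il6st and Osmr were separated between the hepatocyte and the liver groups, Osmr also between the liver groups, Il1r1 between the liver groups and between HNF4a control and FoxA3 null, and Cebpd overlapped between all neighbours.

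Genes whose values ran most like those of Stat3 and Socs3 over the 15 hepatocyte libraries were found by Pearson correlation of log2(RPKM + 1), as a description over libraries that share their group. For Stat3 they were Anapc5 (r = 0.792), Gm14584 (0.785) and E2f6 (0.758). For Socs3 they were Rictor (0.891), 6720401G13Rik (0.831) and 9430038I01Rik (0.827). Osmr is left out because its values there were near 0.

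The authors' deposited tables also place the genes in development. In the hepatoblast against adult table, 8 of the 9 listed genes were lower at an adjusted p under 0.05, where 79.2% of the table's genes passed, 37.9% in the lower direction. Their log2 fold changes were -6.30 for Osmr, -3.70 for Cebpb, -3.08 for Lifr, -3.00 for Nfkbia, -2.83 for Socs3, -2.53 for Stat3, -2.06 for Il6ra and -1.58 for Il1r1, and Il6st was at -0.37 (adjusted p 0.0538). In the newborn against adult table, Cebpb (-3.95), Lifr (-1.37) and Il1r1 (-1.20) were lower and Stat3 (0.92) higher at an adjusted p under 0.05, where 63.3% of the table's genes passed, 31.7% in the lower direction. The other 5 listed genes did not pass in the authors' deposited table, with an adjusted p of 0.409 for Il6ra, 0.102 for Il6st, 0.153 for Osmr, 0.24 for Socs3 and 0.316 for Nfkbia. Cebpd was not analysed in these tables. The adult libraries behind the developmental tables are not named.

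The authors' deposited tables also cover 2 of the comparisons fitted here. In triple null against FoxA3 null the deposited log2 fold changes were -0.85 for Lifr (adjusted p 7.26e-06), -1.35 for Il6ra (0.011), -0.73 for Il6st (0.0121), 0.94 for Nfkbia (0.000287), 0.64 for Cebpb (0.00173) and 0.58 for Il1r1 (0.0194), where 42.7% of that table's genes had an adjusted p under 0.05. In the liver table Cebpb was at -1.20 (4.9e-14) and Il1r1 at -1.02 (1.56e-11), Il6ra at -0.39 (0.0101), Il6st at -0.36 (0.00328) and Nfkbia at -0.32 (0.0182), while Stat3 was at 0.33 (0.312), and 46.3% of that table's genes had an adjusted p under 0.05. For these 6 genes the deposited liver values lay lower than the differences on the log2(RPKM + 1) scale.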

How the data were processed

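RNA-seq libraries of 15 hepatocyte and 6 liver samples were grouped by their labels. The authors deposited RPKM values in 1 matrix; the submitters' processing notes name mm9, SAMtools and Cufflinks 2.2.1 without their roles, so the aligner and annotation are not given in the sources used here. Columns were joined to samples by name, and 9 columns of no sample were not used. Absolute depth is unknown; relative depth, from steps between low RPKM values, was 2.01 to 4.07 in hepatocyte and 1 to 1.1 in liver libraries, where low values are least precise. No count model was fitted.

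log2(RPKM + 1) was tested with limma 3.58.1 in R 4.3.3 (trend) over genes with at least 1 RPKM in 3 hepatocyte or 2 liver libraries, in 1 fit for each tissue, tested on simulated data. The scale understates changes of low genes. The log2 fold changes and p-values of the authors' deposited tables, for which the notes name DESeq2, were copied; the p-values of triple null against Cre alfp, deposited unadjusted, were adjusted here by the Benjamini-Hochberg method and 1 sign was turned. Promoters are from RefSeq. The HNF4a peaks were not used here, since no annotation of their build was at hand.

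The 10 genes, the lists and the tests were chosen with earlier results of these data known. All 10 genes are named, with up to 3 called genes of each list and the 3 genes most like Stat3 and Socs3. Alternatives were pseudocount, filter, scaling, minimum difference, block, groups in the fit and single libraries.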

Additional observations from a re-analysis of the deposited data

Results flagged for a closer look

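In 40 sets of 4 libraries (10 genes in each group of 4), 5 held a library whose gap to the nearest other was large for the range of its group; chance alone gives about 1 in 20. Il6st was at 14.9 RPKM in FoxA3 null replicate 1, over 6.41 to 6.98 in the other 3, and at 39.2 RPKM in 1 library labelled HNF4a null. Osmr was at 0.184 RPKM in triple null replicate 3, Il1r1 at 26.7 RPKM in triple null replicate 2, and Socs3 at 168 RPKM in Cre alfp replicate 4.

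The effect of FoxA1/A2 deletion on Lifr differed between hepatocytes without and with FoxA3, by -1.38 on the log2(RPKM + 1) scale, with a limma adjusted p of 0.000977.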

How the results depend on the processing

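Across 686 values of single genes under alternative settings, 647 kept their direction and their side of the threshold, 6 lost a call, 11 gained one and 22 changed sign, none of the latter with a call. The 6 lost calls are all of Il6ra in triple null against FoxA3 null; the cause was not tested. Among the 10 genes, calls there numbered 2, and 1 without the filter on low values or with the compared groups only, and 1 to 2 without 1 library. Without the minimum difference, 4 genes were called there, 1 in FoxA3 null against lox and 3 in the liver set; over all genes that gave 3413, 628, 1658, 4001 and 6569 calls in the 5 comparisons, against 933, 274, 784, 827 and 1807. In Cre alfp against lox, 182 genes were called with the compared groups only and 177 to 284 without 1 library, with 0 to 1 of the 9 genes; the interaction had 1 to 2 of the 9 without 1 library. FoxA3 null against lox had 1303 calls at a pseudocount of 0.1. Median scaling called 1 of the 10 genes in liver (Cebpb) and moved the split of higher and lower calls from 1067 and 740 to 574 and 986 there, and from 418 and 409 to 309 and 518 in FoxA3 null against lox.

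Signs that changed without a call were these. Without 1 library, Cre alfp against lox ranged from -0.18 to 1.25 for Socs3, -0.30 to 0.17 for Il1r1, -0.32 to 0.05 for Cebpb and -0.04 to 0.37 for Il6ra; FoxA3 null against lox ranged from -0.56 to 0.87 for Socs3, -0.18 to 0.05 for Cebpb and -0.13 to 0.43 for Il6ra; and the liver set ranged from -0.08 to 0.12 for Il6ra, -0.04 to 0.25 for Nfkbia and -0.03 to 0.10 for Il6st. Quantile normalization gave 0.02 for Cebpb in FoxA3 null against lox, and in liver -0.25 for Il6ra, -0.03 for Il6st, -0.01 for Osmr and -0.06 for Nfkbia. Median scaling in liver gave -0.25 for Il6ra, -0.25 for Il6st, -0.24 for Lifr and -0.19 for Nfkbia.

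Same-numbered hepatocyte libraries did not deviate together, with correlations of -0.36 to 0.12, so the numbers were not taken as pairs; with the replicate block 919, 229, 772 and 834 genes were called, and 2, 0, 1 and 0 of the 9. Liver libraries carry no numbers. The liver set rests on 2 controls. Osmr, under 1 RPKM in every hepatocyte library, was tested there without the filter on low values alone, and had no call.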

Other observations

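The C/EBP factor Cebpa had a difference of 1.16 ± 0.20 in FoxA3 null against lox (limma adjusted p 0.00116), at 244 ± 41.5 RPKM (SD, n = 4) against 109.8 ± 26.4 (n = 3). It was at 267 ± 63.3 RPKM in the triple null (n = 4) and 151 ± 21.7 in Cre alfp (n = 4), and neither FoxA1/A2 deletion changed it by a call of limma, at 0.12 ± 0.18 (adjusted p 0.661) and 0.47 ± 0.20 (0.21). Between FoxA3 null and lox, FoxA3, virus and the split of the libraries cannot be told apart for Cebpa either.

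Clcf1, a cytokine gene of the gp130 family, was at 2.12 ± 0.698 RPKM in Cre alfp (SD, n = 4) against 0.288 ± 0.0451 in lox (n = 3), and rose there by 1.25 ± 0.21 (limma adjusted p 0.00327). It reached no more than 0.338 RPKM in lox and 0.640 in FoxA3 null, so it passed the minimum RPKM only through the 2 groups with FoxA1/A2 deletion. Saa1 and Lcn2 had called interactions of 4.76 ± 0.87 (limma adjusted p 0.00275) and 4.47 ± 0.65 (0.000433), where 6.82% of all genes were called. For Saa1 the deletion's difference was 3.60 ± 0.59 without FoxA3 and -1.16 ± 0.64 with it, the latter not called (limma adjusted p 0.374). For Lcn2 it was 5.21 ± 0.44 and 0.73 ± 0.47, the latter again not called (limma adjusted p 0.465). As for Lifr, FoxA3 status and the way of deletion cannot be told apart. In FoxA3 null against lox neither Saa1 nor Lcn2 was called, at -0.68 ± 0.64 (limma adjusted p 0.427) and -0.67 ± 0.47 (0.282).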
